A study of Homo sapiens with 4 samples.

Results

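The genes for the insulin-like growth factor (IGF) binding proteins IGFBP1 to IGFBP7 and for the receptors IGF1R and IGF2R were examined in RNA-seq of 786-O cells. Members were chosen by gene symbol. Each of the 9 symbols named 1 locus of the deposited table, out of 56753 loci in all, and none of the 9 loci carried a second gene name. The choice was made with earlier results of this comparison known, so their differences between the groups are given as a description.

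786-O is a long-established human cell line from a clear cell renal carcinoma and lacks functional VHL, so HIF alpha subunits are not marked for destruction. The control group carried a control vector (2 libraries) and the other group a PRDM16 lentivirus (2 libraries), both by stable transduction and grown under standard adherent culture. PRDM16 is a zinc finger regulator of transcription, and the comparison asks what its overexpression does to gene expression across the genome. The labels do not say whether the transduced cells were pools or clones, or whether the replicates were separate cultures, and p-values therefore reflect the spread of these libraries alone, which may be technical.

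IGF binding proteins are secreted carriers that hold IGF-1 and IGF-2 outside the cell, control how much ligand reaches the receptors and, for some members, act on cells without the ligand. IGF1R is the tyrosine kinase that passes the growth signal on, through IRS adaptors to the PI3K-AKT arm. IGF2R, the cation-independent mannose 6-phosphate receptor, takes IGF-2 up for breakdown and carries acid hydrolases to lysosomes. IGFBP3 is the main carrier in serum and is known as a target of p53 and of the hypoxia response. IGFBP1 is a hypoxia-responsive gene best known from liver.

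The values were read as FPKM (fragments counted per kilobase of transcript, relative to the size of the library), so levels of different genes can be compared per length. PRDM16 was 0.0157 and 0.234 FPKM with the control vector and 1226 and 1146 FPKM in the PRDM16 libraries, in the direction of the labels. Between 23138 and 24490 loci were above 0 in each library. The control vector libraries differed from each other by a median of 0.19 on the log2(FPKM + 1) scale over the 13246 loci with a mean of at least 1 FPKM, and the PRDM16 libraries by 0.098. Of 10 renal carcinoma markers, 9 had a mean of at least 1 FPKM. In both PRDM16 libraries 5 of the 10 were lower and 2 higher, beside 20.3% and 21.1% of all tested loci. The 5 include CUBN, at 0.079 to 0.144 FPKM, which is under that minimum and not among the tested loci. Summed levels per library were 0.143 to 0.280 FPKM for 4 leukocyte and 0.200 to 0.310 FPKM for 4 endothelial markers. The 4 fibroblast markers summed to 4.31 to 4.77 FPKM, most of it LUM and COL1A1, with DCN listed at 0. Means over the 4 libraries were 2.17 FPKM for LUM, 1.78 FPKM for COL1A1 and 0.613 FPKM for PDGFRB. The 4 hepatocyte markers summed to 7.58 to 9.35 FPKM, nearly all of it SERPINA1, with TTR listed at 0.

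Sequence upstream of the start is shown for IGFBP3, which had the largest difference among the members, and for IGF2R, the receptor that was also lower in both PRDM16 libraries. Both come from the RefSeq promoter table on GRCh38.p14, which held 7 of the 9 members. They run 5′ to 3′ on the strand of the gene and stop before the exon at that start. The gene model of IGFBP3 reaches farther upstream, to 45921874, in another transcript. Capitals mark the core of the hypoxia response element, ACGTG or GCGTG on either strand (CACGT or CACGC as printed), and a CACGTG, which is an E-box, reads as the core on both strands.
IGFBP3, chr7:45921275-45921522, minus strand: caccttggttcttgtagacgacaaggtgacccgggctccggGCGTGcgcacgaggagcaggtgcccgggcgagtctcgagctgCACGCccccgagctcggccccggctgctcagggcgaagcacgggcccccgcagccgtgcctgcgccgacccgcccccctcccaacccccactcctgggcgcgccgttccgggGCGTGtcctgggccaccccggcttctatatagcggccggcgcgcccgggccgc
IGF2R, chr6:159968832-159969079, plus strand: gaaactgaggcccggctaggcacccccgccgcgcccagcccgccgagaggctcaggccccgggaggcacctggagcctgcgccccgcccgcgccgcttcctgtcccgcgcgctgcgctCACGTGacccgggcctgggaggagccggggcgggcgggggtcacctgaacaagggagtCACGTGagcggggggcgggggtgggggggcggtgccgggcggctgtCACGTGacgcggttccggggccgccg
Each of these windows of 248 bases held 3 such stretches, and in IGF2R all 3 were CACGTG. At least 1 match was present in 43% of all 35116 windows of this length in the table, so its presence does not set these genes apart. Among the members, a window of IGFBP2, IGFBP3, IGF1R or IGF2R held a match, and those of IGFBP4, IGFBP5 and IGFBP6 did not.

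The members spanned a wide range of levels, led by IGFBP3 in both groups. In the control vector libraries the order of mean FPKM was IGFBP3, IGFBP7, IGF2R, IGFBP6, IGF1R, IGFBP4, IGFBP1, IGFBP5 and IGFBP2. In the PRDM16 libraries IGFBP4 and IGF1R changed places and the rest of the order was the same. The libraries of IGF2R and IGFBP6 overlapped in both groups, as did those of IGF1R and IGFBP4, so these neighbours were not separated. All other neighbours were separated in both libraries of their group. The plot of levels by library shows this order.

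**Figure D1:**
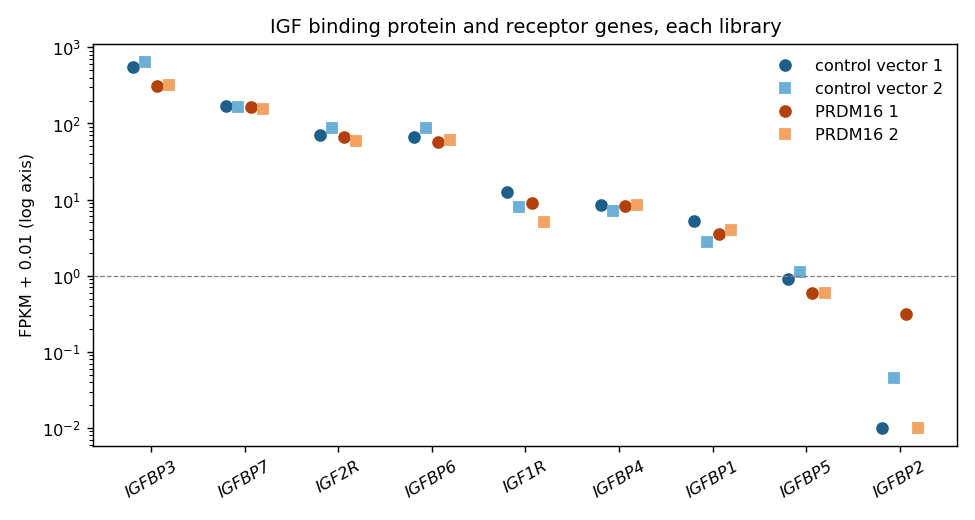
Level of each of the 9 genes in each library (y axis, FPKM + 0.01 on a log axis; circles replicate 1, squares replicate 2, blue control vector, orange PRDM16; dashed line at 1). IGFBP3 lies highest, at 560.0 and 637 FPKM with the control vector and 311 and 325 FPKM with PRDM16, and IGFBP2 lies lowest, with 2 libraries listed at 0.

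Among the binding proteins, IGFBP3 differed most between the groups. It was 560.0 and 637 FPKM with the control vector and 311 and 325 FPKM with PRDM16. Both PRDM16 libraries therefore lay well below both controls, and the gap between the groups was wider than the gap within either. The means were 599 ± 54.8 and 318 ± 10.3 FPKM (SD, n = 2 each), 1.88-fold lower with PRDM16. The log2 change of IGFBP3 was -0.91 (SE 0.099), and it did not pass over all loci (limma adjusted p = 0.271). Its p-value had rank 19 among the 13246 loci tested, and its change was number 94 from the most negative. Only when the loci listed at 0 in every library, 50.1% of the table, were included in the fit was IGFBP3 called (limma adjusted p = 7.07e-18). That fit called 642 loci and limma reported its variance estimate as unreliable. With those loci left out and no other filter, the limma adjusted p of IGFBP3 was 0.762.

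IGFBP6, a carrier with a preference for IGF-2, was 66.4 and 86.0 FPKM against 57.5 and 61.0 FPKM. Both PRDM16 libraries were again below both controls, but the control libraries differed from each other by more than the lower of them differed from the PRDM16 libraries. Its means were 76.2 ± 13.8 and 59.2 ± 2.48 FPKM (SD, n = 2 each), and the log2 change was -0.35 (SE 0.15), short of the threshold (limma adjusted p = 0.689). The change of IGFBP6 was -0.16 when control vector replicate 2 was left out and -0.53 when control vector replicate 1 was.

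IGFBP7, which binds IGFs weakly and is a component of the matrix around cells, held the second place in every library. It was 172 and 163 FPKM with the control vector and 166 and 154 FPKM with PRDM16. The groups overlapped, and the log2 change of IGFBP7 was -0.07 (SE 0.090).

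IGFBP4, an inhibitory carrier that is cut by the protease PAPPA, was 8.43 and 7.07 FPKM against 8.31 and 8.55 FPKM. The groups overlapped, and IGFBP4 was the only tested member with a higher mean, at a log2 change of 0.11 (SE 0.12, limma adjusted p = 0.746). Without control vector replicate 2 that change was 0.00029.

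IGFBP1 was 5.25 and 2.77 FPKM with the control vector and 3.53 and 3.99 FPKM with PRDM16. The PRDM16 libraries lay between the controls, which differed from each other by 0.73 on the log2(FPKM + 1) scale. Its log2 change of -0.03 (SE 0.27) had no stable sign, since it was 0.33 when control vector replicate 1 was left out and -0.39 when control vector replicate 2 was.

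IGFBP5 and IGFBP2 were under the minimum of 1 FPKM for the test. IGFBP5, a carrier that binds to matrix and is known from bone and muscle, was 0.890 and 1.10 FPKM with the control vector and 0.589 and 0.578 FPKM with PRDM16. Both PRDM16 libraries were lower, 1.71-fold on the means, at a level too low for the test. IGFBP2 was listed at 0 and 0.0352 FPKM with the control vector and at 0.302 and 0 FPKM with PRDM16. One library per group was at 0, so no fold is given.

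Of the receptors, IGF1R was 12.5 and 8.01 FPKM with the control vector and 9.05 and 5.03 FPKM with PRDM16. In each group replicate 1 was the higher library, and the groups overlapped. The means were 10.3 ± 3.19 and 7.04 ± 2.84 FPKM (SD, n = 2 each), and the log2 change of -0.50 (SE 0.32) was not called (limma adjusted p = 0.689). The change of IGF1R was -0.14 without PRDM16 replicate 2 and -0.87 without PRDM16 replicate 1, so its size depends on which library is left out.

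IGF2R was 70.8 and 86.6 FPKM with the control vector and 66.0 and 58.0 FPKM with PRDM16. Both PRDM16 libraries were below both controls, by a margin smaller than the difference between the controls. The means were 78.7 ± 11.2 and 62.0 ± 5.64 FPKM (SD, n = 2 each), and the log2 change of IGF2R was -0.33 (SE 0.14, limma adjusted p = 0.689). Leaving out control vector replicate 2 gave -0.19. IGF2R was 5.65 to 11.5 times the level of IGF1R per length over the 4 libraries, and this ratio overlapped between the groups.

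**Figure D2:**
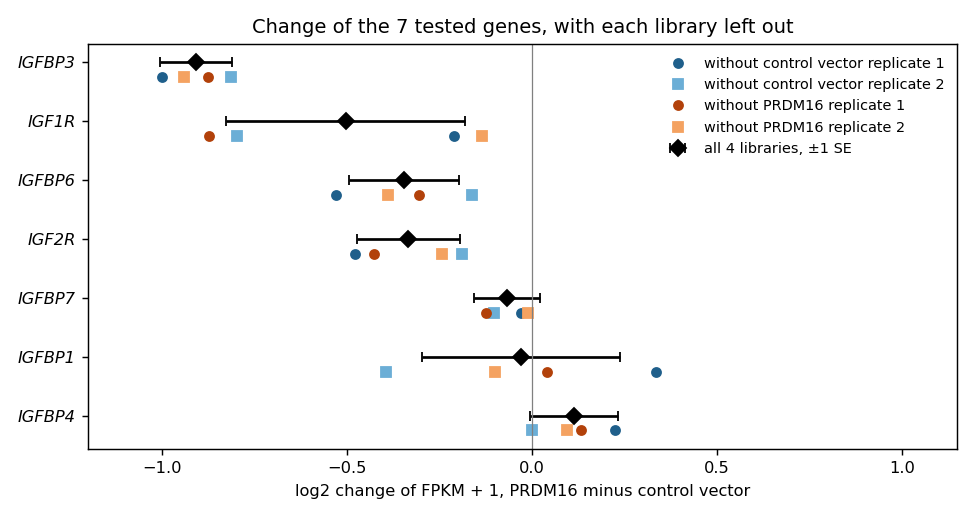
Log2 change of FPKM + 1, PRDM16 minus control vector (x axis), for the 7 tested members; black diamonds with bars give the fit of all 4 libraries ± 1 SE, and coloured points the change with 1 library left out. IGFBP3 stays between -1.0 and -0.82, while IGFBP1 lies on both sides of 0.

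Counted together, 4 of the 9 members (IGFBP3, IGFBP5, IGFBP6 and IGF2R) were lower in both PRDM16 libraries, none was higher in both and 5 overlapped. Of the 7 tested members, 3 were lower in both, beside 20.3% of all tested loci lower in both and 21.1% higher in both. A lower mean was found in 6 of the 7 tested members, beside 49.3% of all tested loci. Their median log2 change was -0.33, beside 0.0040 over all tested loci. That median was -0.14 without PRDM16 replicate 2. It was -0.19 when control vector replicate 2 was left out and -0.21 when replicate 1 of that group was. In the limma fit of all loci, 0 of the 7 tested members were called at an adjusted p under 0.05, beside 0.0226% of all tested loci. At an unadjusted limma p under 0.05 there was 1 member, IGFBP3, beside 6.12% of all tested loci. Because the members were chosen with this contrast known, nothing is read from these counts.

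IGFBP3 made up most of the binding protein transcript in these cells, and its share differed between the groups. The summed level of the 7 IGFBP genes came to 813 and 898 FPKM with the control vector and 547 and 553 FPKM with PRDM16. IGFBP3 was 68.9% and 71.0% of that sum with the control vector and 56.8% and 58.8% with PRDM16. The share of IGFBP7 was 21.2% and 18.2% against 30.4% and 27.8%, and that of IGFBP6 was 8.17% and 9.58% against 10.5% and 11.0%. The other 6 binding proteins without IGFBP3 summed to 253 and 260 FPKM against 237 and 228 FPKM, so most of the drop in the sum was IGFBP3.

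Ratios within a library do not depend on how libraries were scaled. IGFBP3 was 3.26 and 3.90 times the level of IGFBP7 with the control vector and 1.87 and 2.11 times with PRDM16. Against IGFBP6 it was 8.43 and 7.41 times with the control vector and 5.41 and 5.33 times with PRDM16. In both ratios the PRDM16 libraries lay below the controls without overlap. IGFBP3 was taken for these ratios because it differed most, so they are a description. With 2 libraries against 2, the smallest two-sided p an exact permutation test allows is 0.333, so no test of these ratios is given.

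**Figure D3:**
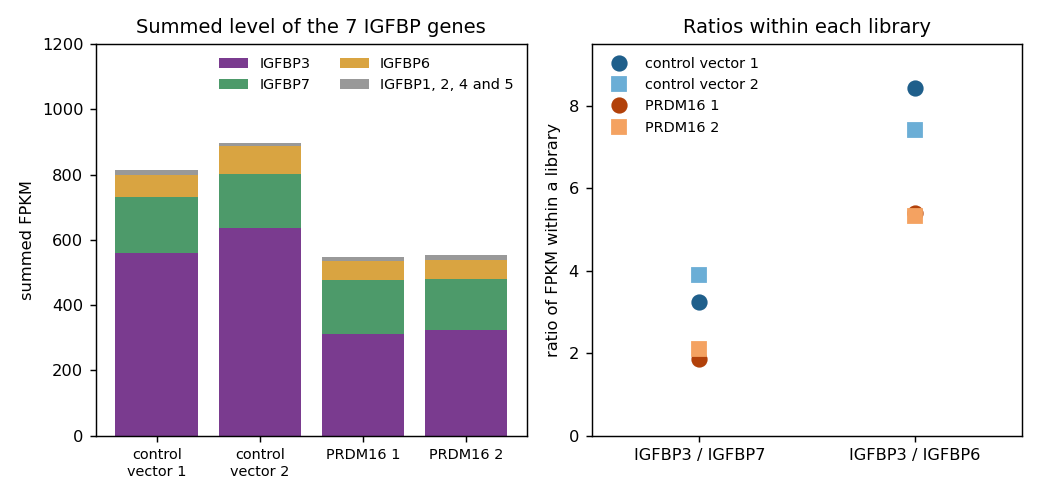
Left, FPKM of the 7 IGFBP genes stacked in each library, from 547 to 898 FPKM in sum; right, ratio of IGFBP3 to IGFBP7 and to IGFBP6 within each library. IGFBP3 takes the largest part of every bar, and both ratios are lower in the PRDM16 libraries.

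The members lie on 7 chromosomes, with a pair of neighbours on each of 2 of them (GENCODE release 29 on GRCh38). IGFBP1 (chromosome 7, 45888357 to 45893668, plus strand) and IGFBP3 (45912245 to 45921874, minus strand) are 18.6 kb apart. Across that distance the levels were far apart, with IGFBP3 at 81.5 to 230.1 times IGFBP1, and only IGFBP3 of the pair had groups that did not overlap. IGFBP2 (chromosome 2, 216632828 to 216664436, plus strand) and IGFBP5 (216672105 to 216695525, minus strand) are 7.7 kb apart, and both were at or near the bottom of the range. The others are IGFBP4 on chromosome 17 (40443461 to 40457731), IGFBP6 on chromosome 12 (53097436 to 53102345), IGFBP7 on chromosome 4 (57030773 to 57110385), IGF1R on chromosome 15 (98648539 to 98964530) and IGF2R on chromosome 6 (159969099 to 160113507).

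The rest of the IGF pathway was described from a list of 47 genes in 46 loci, of which 36 were tested. With limma 0 of the 36 were called at an adjusted p under 0.05, beside 0.0226% of all tested loci, and 6 had an unadjusted p under 0.05, beside 6.12%. In the list, 4 loci were listed at 0 in all libraries. Lower means were found in 21 and higher means in 15, beside 49.3% of all tested loci with a lower mean. Both PRDM16 libraries were lower at 7 loci and higher at 8, near the shares over all tested loci (20.3% and 21.1%). The median log2 change was -0.05, close to that of all tested loci.

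Of the ligands, IGF1 was listed at 0 in all 4 libraries. IGF2 was measured in a locus that also names INS, INS-IGF2 and AC132217.4, at 0.509 and 0.524 FPKM with the control vector and 1.55 and 2.94 FPKM with PRDM16. Both PRDM16 libraries were higher, and the log2 change of 1.06 (SE 0.26) was not called (limma adjusted p = 0.689). The value cannot be split between the 4 names, and in every library it was below those of IGFBP1, IGFBP3, IGFBP4, IGFBP6 and IGFBP7. The insulin receptor gene INSR was 0.0257 and 0.0571 FPKM against 0.0157 and 0.0320 FPKM, near the floor in every library, and IGFBPL1, a binding protein relative, was listed at 0.

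Among the genes that act on the binding proteins outside the cell, 4 of 6 were tested. The metalloprotease gene ADAM12 was 19.0 and 20.8 FPKM against 16.1 and 13.7 FPKM, lower in both PRDM16 libraries. PAPPA, which cuts IGFBP4, was under the minimum at 0.374 and 0.506 FPKM against 0.299 and 0.204 FPKM, lower in both PRDM16 libraries. STC2, which encodes an inhibitor of PAPPA, was 229 and 451 FPKM against 264 and 181 FPKM, with control vector replicate 2 apart from the others. IGFALS, the acid-labile subunit that completes the serum complex with IGFBP3, shares its locus with SPSB3, at 17.1 and 20.5 FPKM against 16.5 and 14.6 FPKM.

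Adaptors and the PI3K-AKT arm were expressed throughout, with small differences in both directions. IRS2, the adaptor with the largest difference, was 38.8 and 45.5 FPKM against 31.6 and 29.2 FPKM. The log2 change of IRS2 was -0.45 (SE 0.12), not called (limma adjusted p = 0.689). IRS1 was 22.8 and 19.6 FPKM against 22.3 and 21.3 FPKM, with overlapping groups. GRB2, which links receptors to RAS, was 79.3 and 68.1 FPKM against 83.6 and 81.3 FPKM. SHC1, in a locus that also names PYGO2, was 89.0 and 88.7 against 99.2 and 92.2 FPKM. Of the 14 tested loci of the PI3K-AKT arm, 3 were lower in both PRDM16 libraries and 3 higher in both, again near the 20.3% and 21.1% of all tested loci. MTOR and FOXO3 were among the lower ones, at log2 changes of -0.08 and -0.07. AKT1, FOXO1 and RHEB, the GTPase that activates mTORC1, were the higher ones, at 0.13, 0.20 and 0.26.

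In the remaining roles, the IGFBP-related matrix protein gene CTGF was 23.7 and 21.9 FPKM against 31.0 and 28.5 FPKM, higher in both PRDM16 libraries. The mRNA-binding protein gene IGF2BP3 was 13.2 and 13.9 FPKM against 12.4 and 11.6 FPKM, lower in both. IGF2BP1, in a locus that also names AC105030.1 and is under the minimum, was 0.311 and 0.350 against 0.601 and 0.406 FPKM, higher in both. PLAUR, the urokinase receptor gene, was 59.7 and 59.4 FPKM against 79.7 and 77.4 FPKM. The log2 change of PLAUR was 0.39 (SE 0.083), not called (limma adjusted p = 0.689). M6PR, the other mannose 6-phosphate receptor gene, was 187 and 182 FPKM against 184 and 186 FPKM, beside the lower values of IGF2R. TMEM219, which encodes a cell surface receptor for IGFBP3, was 66.9 and 78.9 FPKM against 67.0 and 59.8 FPKM, with overlapping groups.

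**Figure D4:**
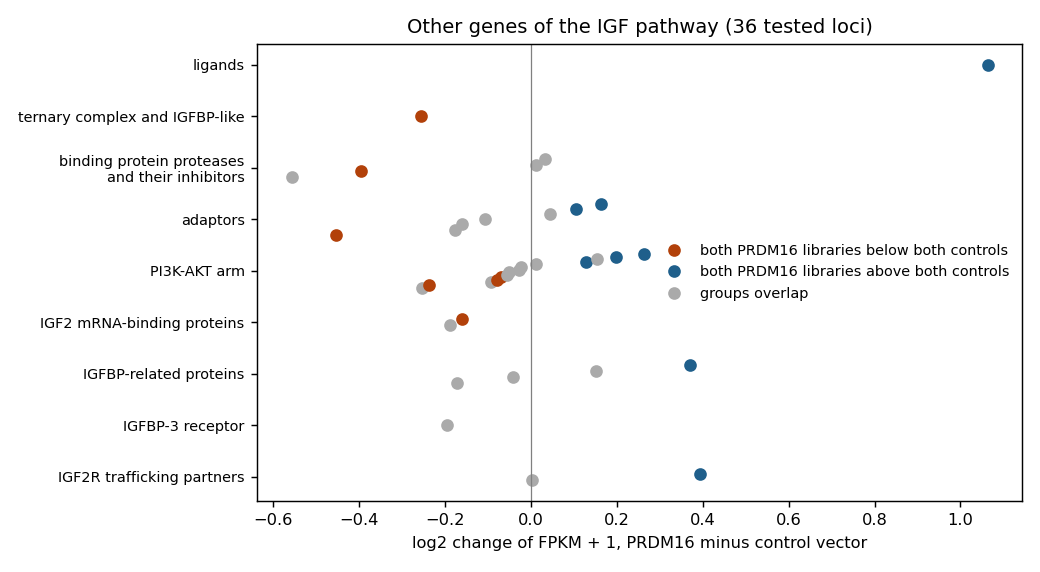
Log2 change of FPKM + 1, PRDM16 minus control vector (x axis), of the 36 tested pathway loci by role (1 point per locus; orange lower in both PRDM16 libraries, blue higher in both, grey overlapping). The locus of IGF2 and INS lies farthest right at 1.06, and the other loci lie between -0.56 and 0.39.

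The 5 genes with profiles most like that of IGFBP3 were found by the root mean square difference of centred log2(FPKM + 1) over the 4 libraries, among 7156 other protein-coding loci with a mean of at least 5 FPKM. They were the matrix protein gene MATN2 (0.068), the glycosyltransferase gene B3GNT4 (0.096), the carbohydrate kinase family gene FGGY (0.11), the HIF prolyl hydroxylase gene EGLN3 (0.12) and ARTN (0.13), a neurotrophic ligand gene. MATN2, the nearest, was 22.5 and 27.5 FPKM with the control vector and 13.6 and 12.7 FPKM with PRDM16. All 5 were chosen for this likeness over 4 values, and none passed over all loci (limma adjusted p from 0.478 to 0.689).

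**Figure D5:**
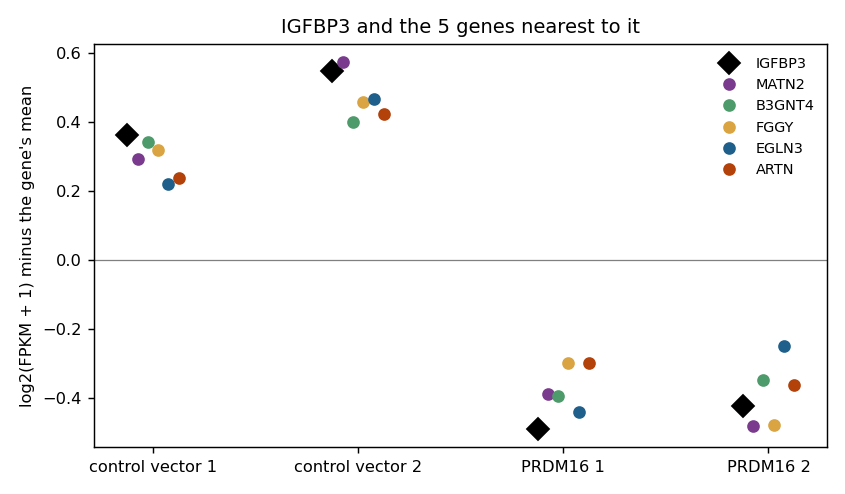
Centred log2(FPKM + 1) (y axis) of IGFBP3 (black diamonds) and the 5 genes nearest to it in each of the 4 libraries. All 6 genes lie above their own mean in both control vector libraries and below it in both PRDM16 libraries.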

How the data were processed

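RNA-seq of total RNA was deposited as 1 table for 4 libraries. Per the submitters' processing notes, the tools included TopHat2 2.1.0, Cufflinks 2.2.1, Cuffdiff and Trim Galore, with the build hg38. No source used here gives the annotation, filters, library scaling or strandedness. The authors' values were taken as FPKM, a unit the deposited header does not name, because they are not whole and sum to 556213 to 574003 per library. The reads behind them are unknown. The most frequent ratio among values under 0.3 FPKM put the other libraries at 1.17 to 1.4 times the depth of control vector replicate 1.

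Loci with a mean of at least 1 FPKM were fitted with limma 3.58.1 in R 4.3.3 on log2(FPKM + 1), a scale that understates changes of low genes, with a variance trend, a two-sided moderated test and Benjamini-Hochberg adjustment over all 13246 loci (threshold 0.05). The test was checked on simulated data. Pandas 2.3.3 and matplotlib 3.10.9 made tables and plots.

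The members and gene lists were chosen with earlier results of these data known. All members are named. From each pathway role the text names ligands, INSR, genes whose groups did not overlap or, failing that, the gene with the largest change; 1 gene is not reported here. STC2, IRS1, M6PR and IGFBPL1 were added for their role after their values were seen. Alternatives covered pseudocounts, filters, scaling, variance models, a replicate block and leaving out each library.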

Additional observations from a re-analysis of the deposited data

How the results depend on the processing

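The log2 change of IGFBP3 was between -1.0 and -0.82 in all 15 alternatives to the fit. It was called in 1 of them, the fit with no filter on low values, at an unchanged -0.91. That fit also called 1 member in all, 2 pathway loci (that of IGF2 and INS, and STC2) and 642 loci over the table, and limma reported its variance estimate as unreliable. Restricted to loci above 0 in any library, a choice made after seeing this, 1 locus was called over the table and no member. The number of called loci, 3 as reported, was 5 with a pseudocount of 0.1, with robust variances and with the replicate block, and 6 without a variance trend. With 1 library left out it was 16 to 39, and no member was among them. IGFBP1 changed sign after quantile normalization, to 0.017, and its change was from -0.39 to 0.33 with 1 library left out. The cause was not tested. The median change of the tested members was from -0.31 to -0.14 with 1 library left out. Without IGFBP7, the share of IGFBP3 in the summed level was 87.1% in the control vector and 81.5% in PRDM16, in a calculation added after seeing the data. Same-numbered libraries did not deviate together over the tested loci (r = -0.058 across 13246 loci, which are not independent). With so few libraries per group, this correlation cannot settle whether the numbers pair them. With the replicate block IGFBP3 had a limma adjusted p of 0.602, and no member was called.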
